A study of Homo sapiens with 12 samples.

Results

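The genes described here are the cytoplasmic sensors of double-stranded RNA and the 2'-5'-oligoadenylate synthetase (OAS) family, 9 of the 58721 genes in the deposited tables. They were chosen by name, and all 9 were found: DDX58, IFIH1, DHX58, MAVS, EIF2AK2, OAS1, OAS2, OAS3 and OASL. RNA-seq was performed on 12 libraries of Pa-Tu-8902 and MIA PaCa-2, which are human pancreatic cancer cell lines, in 4 groups of 3 (each line without and with dox). All 12 came from iDox-shGOT1 cells, transduced with a lentiviral Tet-pLKO vector whose doxycycline (dox)-inducible short hairpin targets the transaminase GOT1, and selected as stable lines. Untreated cells had no dox, and treated cells had dox for 5 days, at a dose written as 1 µM/mL in the labels and as 1 µg/mL in the methods. Which GOT1 hairpin these cells carried is not given in the sources used here, and no hairpin without a target is among these libraries. Dox itself, expression of a hairpin and loss of GOT1 therefore cannot be told apart.

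Double-stranded RNA in the cytoplasm is a sign of viral infection, and it can also arise from a cell's own transcripts. The helicases RIG-I (gene DDX58) and MDA5 (gene IFIH1) bind it and activate the mitochondrial adaptor MAVS, which leads through TBK1 and the IRF transcription factors to interferon, while LGP2 (gene DHX58) is a related helicase that regulates both. The kinase PKR (gene EIF2AK2) binds double-stranded RNA and halts translation by phosphorylating eIF2α, and OAS1, OAS2 and OAS3 make 2'-5'-linked oligoadenylates, which set off the decay of RNA. OASL is the family member that lacks this synthetase activity and binds RIG-I instead. Most of these genes are themselves induced by interferon, through the complex ISGF3, of which STAT2 and IRF9 are part and which binds the interferon-stimulated response element.

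Promoters are shown for OAS1, OAS3, IFIH1, DDX58 and EIF2AK2 because these genes are known as interferon targets. EIF2AK2 was not called in any main comparison below. The promoter of MAVS was searched but is not shown. RefSeq promoter sequence (GRCh38.p14, 250 bases before to 50 bases after the RefSeq start of the gene) was matched for 6 of the 9 members: OAS1, OAS3, IFIH1, DDX58 (listed as RIGI), EIF2AK2 and MAVS. Each run is written from 5′ to 3′ on the strand of its gene. Capitals mark matches on either strand to the repeated GAAA core of the response element, which is GAAA, any 2 bases and GAAA, or the same with 1 base between. The second spacing was added after the search with the first.
OAS1, chr12:112906712-112907011, plus strand: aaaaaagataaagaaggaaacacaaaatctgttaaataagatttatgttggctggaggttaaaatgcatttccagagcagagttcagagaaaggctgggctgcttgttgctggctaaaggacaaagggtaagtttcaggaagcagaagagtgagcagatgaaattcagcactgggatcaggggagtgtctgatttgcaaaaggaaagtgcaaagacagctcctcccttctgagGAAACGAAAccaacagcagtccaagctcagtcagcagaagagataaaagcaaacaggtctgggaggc
OAS3, chr12:112938224-112938523, plus strand: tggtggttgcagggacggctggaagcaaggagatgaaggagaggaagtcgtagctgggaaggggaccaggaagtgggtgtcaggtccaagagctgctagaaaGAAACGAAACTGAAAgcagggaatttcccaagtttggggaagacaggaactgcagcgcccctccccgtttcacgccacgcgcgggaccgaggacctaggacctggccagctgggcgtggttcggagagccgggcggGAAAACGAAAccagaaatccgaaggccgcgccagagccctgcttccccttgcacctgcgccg
IFIH1, chr2:162318635-162318934, minus strand: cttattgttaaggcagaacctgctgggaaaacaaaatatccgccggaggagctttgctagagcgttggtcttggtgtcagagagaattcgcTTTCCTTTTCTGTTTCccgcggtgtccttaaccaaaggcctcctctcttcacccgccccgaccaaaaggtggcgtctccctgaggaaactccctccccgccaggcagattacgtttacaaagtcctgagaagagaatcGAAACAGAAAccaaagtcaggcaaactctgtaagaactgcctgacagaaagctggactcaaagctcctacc
DDX58, chr9:32526147-32526446, minus strand: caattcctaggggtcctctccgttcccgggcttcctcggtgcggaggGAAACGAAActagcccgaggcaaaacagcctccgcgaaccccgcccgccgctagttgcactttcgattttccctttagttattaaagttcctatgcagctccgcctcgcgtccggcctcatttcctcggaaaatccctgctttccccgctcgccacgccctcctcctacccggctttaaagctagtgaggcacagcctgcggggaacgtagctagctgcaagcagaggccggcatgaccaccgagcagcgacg
EIF2AK2, chr2:37156931-37157230, minus strand: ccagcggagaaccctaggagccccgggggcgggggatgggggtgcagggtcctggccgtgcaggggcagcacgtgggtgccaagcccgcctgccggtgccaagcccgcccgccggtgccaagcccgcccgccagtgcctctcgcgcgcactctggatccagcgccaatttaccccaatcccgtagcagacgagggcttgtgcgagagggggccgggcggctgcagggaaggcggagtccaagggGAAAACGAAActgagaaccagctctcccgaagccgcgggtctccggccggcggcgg
The pair with 2 bases between was found in 3.57% of all 35116 promoters of this length, and the pair with 1 base between in 3.12%. With the first transcribed base counted as 0, OAS3 held the pair with 2 bases between from base -143 and again from base -12, and IFIH1 held it from base -21 on its own strand and in an overlapping pair from bases -159 and -153 on the opposite strand. EIF2AK2 had a single match, from base -6, which spans the start. OAS1 and DDX58 had only the pair with 1 base between, from base -17 and base -203, and OAS3 held it too, from base -148, overlapping its first match. OAS1 also held TTCNNNGAA from base -168, the palindromic core of the interferon-gamma activated site, which 7.66% of all promoters held and none of the other 5 did. The MAVS promoter held none of the 3 motifs. A match to these letters is a description and does not show binding.

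The libraries held 26226537 to 43406137 counts. GOT1 was 81.0 ± 2.59 TPM (the RSEM abundance scaled by transcript length and library, SD, n = 3) in untreated and 3.83 ± 0.62 in dox-treated Pa-Tu-8902, and 41.9 ± 2.68 and 1.83 ± 0.14 TPM in MIA PaCa-2. All 6 epithelial markers were abundant in Pa-Tu-8902, whereas MIA PaCa-2 had KRT8, KRT18 and KRT19 but at most 0.36 TPM of EPCAM and 0.22 TPM of CDH1. The leukocyte list summed to at most 14.1 TPM in any library. In each line 1 of its 3 genes tested fell after dox, beside 7.12% (Pa-Tu-8902) and 7.64% (MIA PaCa-2) of all genes tested. PTPRC and CD3E did not exceed 0.17 TPM, but CD68, CD14 and ITGAM were detected. In untreated MIA PaCa-2 these 3 had means of 343.8, 132.8 and 13.5 counts, scaled to the mean library size of the line. The fibroblast and endothelial list summed to 3.84 to 7.34 TPM in untreated and 18.2 to 22.1 TPM in dox-treated Pa-Tu-8902, most of it COL1A1, and to 192.2 to 248.1 and 340.3 to 398.3 TPM in MIA PaCa-2, nearly all of it COL1A2, while DCN and LUM did not exceed 0.14 TPM anywhere. The part of these genes in the results on the sensors was not tested. Nothing in the labels says that the 3 libraries of a group came from separate cultures, so p-values measure only the spread between these libraries, which may be technical.

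The 2 lines differed widely in the level of these genes before any treatment. Together the 9 genes summed to 152.8 to 158.6 TPM in untreated Pa-Tu-8902 and to 40.8 to 50.5 TPM in untreated MIA PaCa-2. TPM is scaled by transcript length and can be compared between genes. In untreated Pa-Tu-8902 the order of the mean levels was EIF2AK2 42.5, OAS3 40.8, IFIH1 21.2, MAVS 16.7, DDX58 16.0, OASL 8.73, OAS1 5.87, DHX58 2.18 and OAS2 1.13 TPM. The ranges of EIF2AK2 and OAS3 overlapped, as did those of MAVS and DDX58, and every other pair of neighbours was apart. In untreated MIA PaCa-2 EIF2AK2, at 21.4 TPM, and MAVS, at 19.9 TPM, led with overlapping ranges. DDX58 followed at 1.97, OAS3 at 1.23, DHX58 at 0.787, OASL at 0.387, IFIH1 at 0.127, OAS1 at 0.113 and OAS2 at 0.0167 TPM. Ranges of OAS3 and DHX58, and of IFIH1 and OAS1, overlapped.

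**Figure D1:**
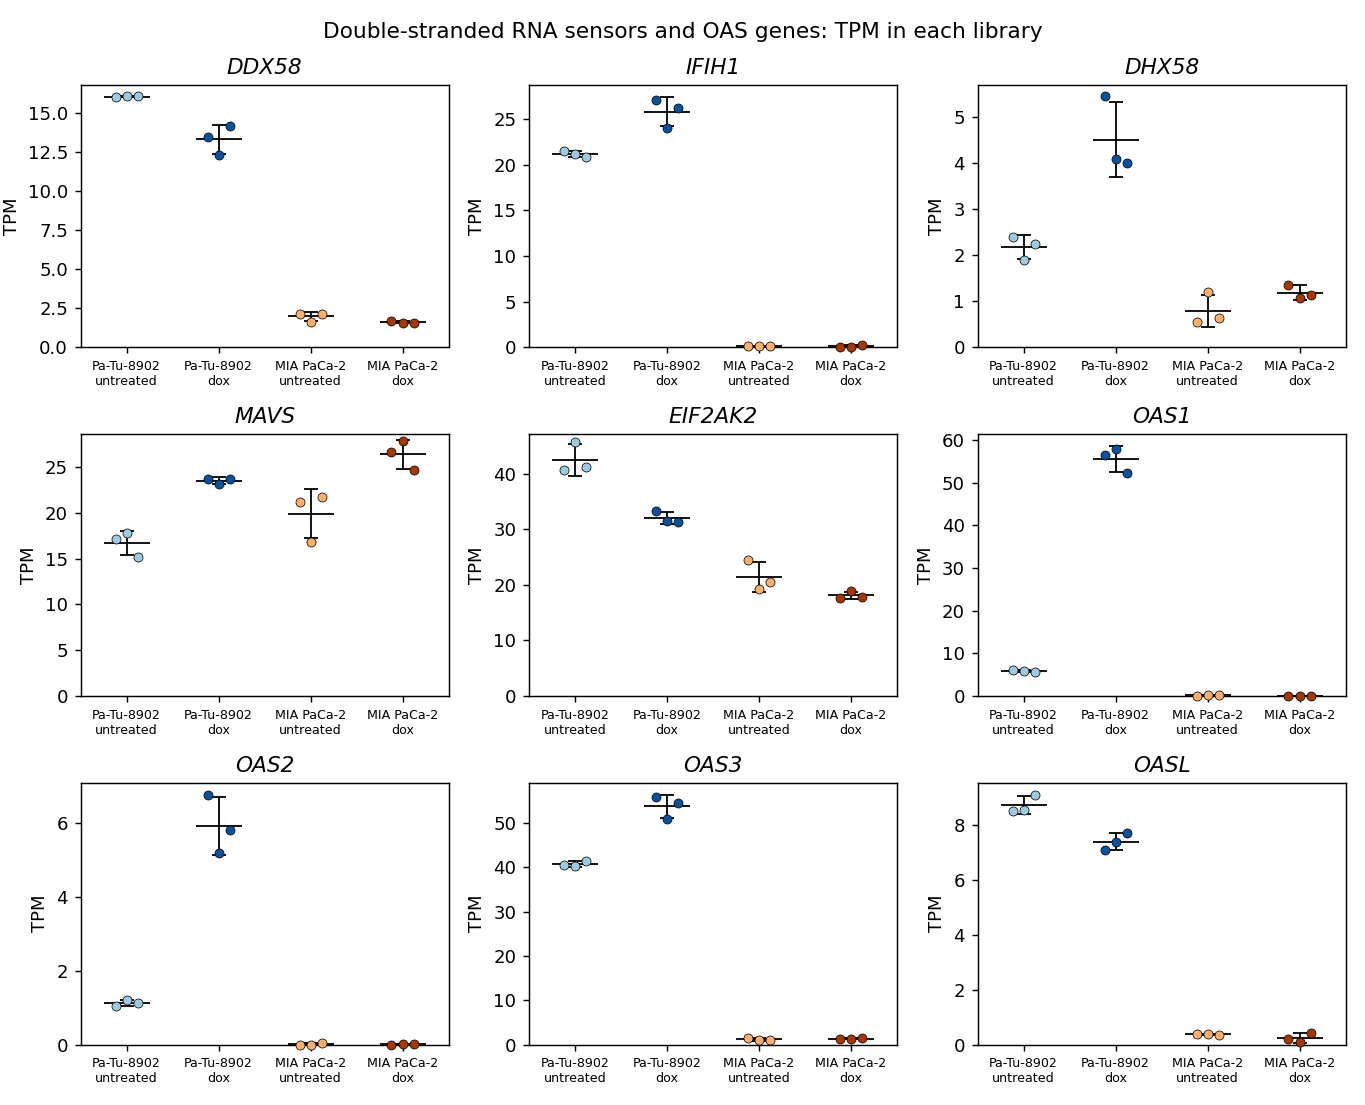
TPM of each of the 9 genes (y axes start at 0 and differ between panels) in untreated and dox-treated Pa-Tu-8902 and MIA PaCa-2, with 1 point per library, the mean as a line and the SD of 3 libraries as a bar. OAS1 goes from 5.87 to 55.6 TPM in Pa-Tu-8902, whereas every gene but MAVS and EIF2AK2 in MIA PaCa-2 stays at or below 2.15 TPM.

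The untreated lines were compared by a contrast within a fit of all 12 libraries, using the quasi-likelihood test of edgeR, with p-values of 16544 genes adjusted by the Benjamini-Hochberg method. A call required an adjusted p below 0.01 together with a 1.5-fold change. Of the 9 members, 7 were called, all higher in Pa-Tu-8902, beside 57.5% of all genes tested that were called, 29.4% higher and 28.2% lower. Normalized counts of the 2 groups did not overlap for any of the 9, as for 80.1% of all genes tested. The median log2 fold change of the members was 4.31, and that of all genes was 0.00. OAS1 and OAS2 passed the filter on counts only through Pa-Tu-8902, so they could only be called higher there. With at least 10 counts in every library, 3 members were called.

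IFIH1, which encodes the sensor MDA5, differed most among the sensors. It was at 21.47, 21.22 and 20.83 TPM in untreated Pa-Tu-8902 and at 0.09, 0.15 and 0.14 TPM in untreated MIA PaCa-2, from 4470 and 28 counts in all. The log2 fold change was 7.34 (SE 0.19), with an edgeR adjusted p of 2.79e-16. The ratio of the summed counts was 163.5, with an exact 95% interval of 113.0 to 246.3 that covers counting error only. DDX58 was at 15.98, 16.04 and 16.04 TPM against 2.15, 1.62 and 2.13 TPM, a log2 fold change of 3.03 (SE 0.08). DHX58, the third helicase of the family, was at 2.40, 1.90 and 2.24 TPM against 0.54, 1.19 and 0.63 TPM, and its log2 fold change was 1.61 (SE 0.23). No library of one line reached the range of the other for any of the 3 helicases.

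The OAS genes were also apart between the lines. OAS3, the largest synthetase, was at 40.46, 40.30 and 41.51 TPM in untreated Pa-Tu-8902 and at 1.58, 1.13 and 0.98 TPM in untreated MIA PaCa-2, a log2 fold change of 5.30 (SE 0.08). OASL was at 8.54, 8.55 and 9.11 TPM against 0.38, 0.41 and 0.37 TPM, a log2 fold change of 4.31 (SE 0.18). OAS1 and OAS2 were barely detected in MIA PaCa-2. OAS1 had 511 counts over the 3 untreated Pa-Tu-8902 libraries and 9 over those of MIA PaCa-2, a depth-scaled ratio of 58.2 with an exact 95% counting interval of 30.4 to 127.9. OAS2 had 252 and 3 counts, a ratio of 86.0 with an interval of 29.1 to 420.0. With so few counts the fitted log2 fold changes of these genes, 5.81 for OAS1 and 6.26 for OAS2, depend on the prior count. That of OAS2 was 9.45 without untreated MIA PaCa-2 replicate 3, which holds all 3 counts, and as low as 5.70 without another library. The low end of each interval is above the 1.5-fold limit. After dox OAS1 had 5473 and 2 counts, a ratio of 2279 with an interval of 631 to 18825.

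The adaptor and the kinase differed least between the lines. MAVS was at 17.12, 17.79 and 15.20 TPM in untreated Pa-Tu-8902 and at 21.21, 16.85 and 21.68 TPM in untreated MIA PaCa-2, with overlapping TPM ranges. On normalized counts its log2 fold change was -0.27 (95% interval -0.39 to -0.16), so it was 1.21-fold lower in Pa-Tu-8902 and short of the fold limit. EIF2AK2 was at 40.62, 45.77 and 41.13 TPM against 24.53, 19.24 and 20.48 TPM. Its TPM ratio was 1.99, whereas its log2 fold change on counts was 0.44 (95% interval 0.32 to 0.56), a fold of 1.35 that was not called. The transcript length that RSEM assigned to EIF2AK2 differed between the lines, as given with its isoforms, and when these lengths entered the fit as offsets the estimate was 0.93 and EIF2AK2 was called.

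**Figure D2:**
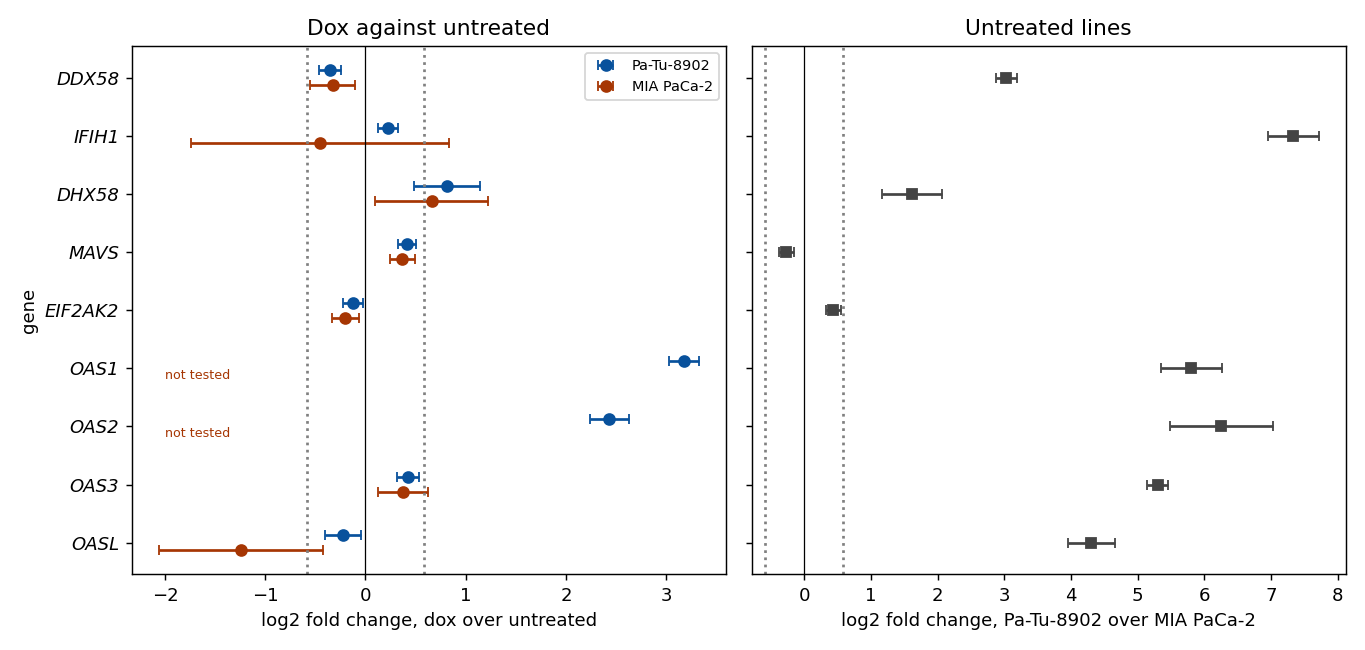
Left, log2 fold change of dox-treated over untreated libraries in each line for the 9 genes. Right, log2 fold change of untreated Pa-Tu-8902 over untreated MIA PaCa-2. Points are edgeR estimates with 95% intervals, dotted lines mark the 1.5-fold limit, and OAS1 and OAS2 were too low to test in MIA PaCa-2. OAS1 at 3.18 and OAS2 at 2.43 stand apart from the other members in Pa-Tu-8902, and on the right only MAVS and EIF2AK2 lie near 0.

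In Pa-Tu-8902, OAS1, OAS2 and DHX58 rose after dox, and the other 6 members stayed within 1.5-fold. The 6 libraries of the line were fitted alone. All 9 members were tested, 3 of them were called, all higher, beside 16.3% of the 14949 genes tested that were called, 9.22% higher and 7.12% lower. Normalized counts below are scaled to the mean library size of the line. In bulk RNA a change in all cells and a change in the share of cells that express a gene cannot be told apart.

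OAS1 had the largest response of the 9. Its normalized counts were 185.0, 172.9 and 200.6 in the untreated libraries and 1712, 1737 and 1593 in the dox-treated ones. The groups were far apart and varied little within themselves. The log2 fold change was 3.18 (SE 0.08, 9.05-fold), with an edgeR adjusted p of 2.37e-09, and its p ranked 4 of 14949. The level went from 5.87 ± 0.29 to 55.6 ± 2.97 TPM (SD, n = 3), so that OAS1 moved from the seventh to the first place among the members, with a range that overlapped that of OAS3.

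OAS2 followed. Its normalized counts were 85.2, 97.4 and 90.2 in untreated and 492.5, 482.9 and 503.6 in dox-treated libraries, a log2 fold change of 2.43 (SE 0.10, 5.40-fold) and an edgeR adjusted p of 3.12e-08. In level it remained low, at 5.91 ± 0.78 TPM after dox. OAS3 started high and moved little. Its normalized counts were 4955, 5005 and 5573 in untreated and 6993, 6736 and 7121 in dox-treated libraries, a log2 fold change of 0.42 (SE 0.06, 1.34-fold) that missed the fold limit. OASL had 450.2, 407.9 and 495.9 against 372.3, 396.1 and 388.3 normalized counts, with a log2 fold change of -0.22 (95% interval -0.40 to -0.05) and an edgeR adjusted p of 0.0617. The untreated and dox-treated values of OAS3 and OASL did not overlap, which was so for all 9 members and for 58.5% of all genes tested.

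The 3 synthetase genes lie next to each other in the same direction on chromosome 12 (GENCODE release 44, GRCh38). OAS1 spans chr12:112905856-112933219, OAS3 chr12:112938051-112976460 and OAS2 chr12:112978395-113011723. OAS1 and OAS3 are 4.83 kb apart and OAS3 and OAS2 1.93 kb, so the cluster covers 106 kb. OASL is on the opposite strand, 8.01 Mb further on, at chr12:121017763-121039246. The middle gene OAS3, which was the most abundant of the 3 in untreated cells, had the smallest fold change between a pair of neighbours that were called. A long non-coding gene on the opposite strand, AC004551.1, overlaps all 3, and its mean level was at most 0.07 TPM in any group. The RSEM run used default parameters, and a strand setting was not given in the sources used here.

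**Figure D3:**
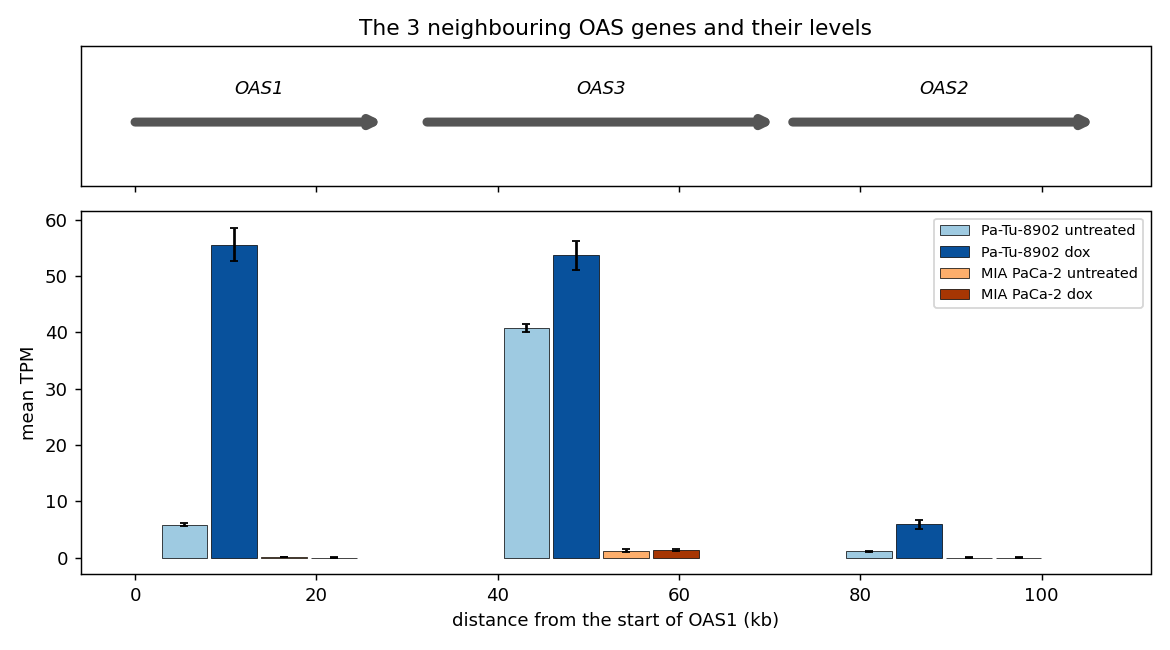
Top, the positions and direction of OAS1, OAS3 and OAS2 along chromosome 12, as the distance in kb from the start of OAS1. Bottom, mean TPM of each gene in the 4 groups with the SD of 3 libraries as error bars, drawn at the middle of the gene. OAS1 goes from 5.87 to 55.6 TPM in Pa-Tu-8902, beside an OAS3 level of 40.8 to 53.7 TPM, and MIA PaCa-2 has little of any of the 3.

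Of the helicases, DHX58 alone was called. It had 88.8, 67.8 and 80.0 normalized counts in untreated and 163.8, 123.1 and 127.0 in dox-treated libraries, a log2 fold change of 0.81 (SE 0.17, 1.75-fold) and an edgeR adjusted p of 0.0022. This call was lost without untreated replicate 2, when the log2 fold change was 0.71 and the edgeR adjusted p was 0.0126. The genes of the other helicases, MDA5 and RIG-I, were within the fold limit, in opposite directions. IFIH1 had 1623, 1595 and 1652 against 1944, 1811 and 1928 normalized counts, a log2 fold change of 0.22 (SE 0.05). DDX58 had 1673, 1665 and 1796 against 1330, 1280 and 1410 normalized counts, a log2 fold change of -0.35 (SE 0.06), or 1.28-fold lower.

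MAVS had 5017, 5154 and 4773 normalized counts in untreated and 6546, 6700 and 6662 in dox-treated Pa-Tu-8902, a log2 fold change of 0.41 (SE 0.05, 1.33-fold). EIF2AK2 had 4630, 4734 and 4406 against 4359, 4142 and 4124 normalized counts, a log2 fold change of -0.13 (95% interval -0.22 to -0.03). Without the fold limit, 7 of the 9 members had an edgeR adjusted p below 0.01, as did 38.1% of all genes tested, and EIF2AK2 and OASL did not. The members' median log2 fold change was 0.41, beside 0.00 for all genes tested.

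In MIA PaCa-2 none of the members was called after dox. OAS1 and OAS2 were too low to test, and edgeR called 0 of the other 7, beside 12% of the 14589 genes tested, 4.36% higher and 7.64% lower. DESeq2 also called 0. An unadjusted p below 0.05 was found for 6 of the 7, and for 49.6% of all genes tested. OAS1 had 2, 3 and 4 counts in the untreated and 0, 0 and 2 in the dox-treated libraries, and OAS2 had 0, 0 and 3 and then 0, 1 and 1. A library with a count of 0 allows up to 3 counts, so both genes were at or about the limit of detection with and without dox.

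The member with the largest estimate in MIA PaCa-2 was OASL. It had 24.1, 17.4 and 20.7 normalized counts in untreated and 6.60, 4.59 and 13.9 in dox-treated libraries, which were lower without overlap. The log2 fold change was -1.24 (SE 0.42), with an edgeR adjusted p of 0.0322. In 1 fit of all 12 libraries, it was -1.23 with an edgeR adjusted p of 0.00508, and OASL was then called lower. Over the fits that leave out 1 library the estimate ran from -1.87 (without dox-treated replicate 3) to -0.98 (without dox-treated replicate 2). Its mean effective length was 2244 bases in untreated and 1574 in dox-treated libraries, and with these lengths in the fit the estimate was -0.71. The TPM of OASL overlapped, at 0.37 to 0.41 in untreated and 0.10 to 0.44 in dox-treated MIA PaCa-2. DHX58 had 17.6, 30.8 and 22.7 against 40.7, 31.0 and 39.9 normalized counts, a log2 fold change of 0.66 (95% interval 0.10 to 1.22) that was not called. IFIH1 had 6.49, 11.3 and 9.86 against 1.10, 3.44 and 13.9 normalized counts, and its groups overlapped. Its log2 fold change was -0.46, with a 95% interval of -1.74 to 0.83. The other 6 members tested had groups that did not overlap, as did 52.9% of all genes tested.

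The members expressed at more than 100 normalized counts in MIA PaCa-2 had estimates close to those in Pa-Tu-8902. DDX58 had 198.5, 176.6 and 203.1 against 158.4, 148.0 and 154.4 normalized counts, a log2 fold change of -0.33 (SE 0.12). OAS3 had 128.9, 118.0 and 115.3 against 168.3, 150.3 and 152.7, a log2 fold change of 0.38 (SE 0.13). MAVS had 5658, 5184 and 5763 against 7115, 7460 and 6866, a log2 fold change of 0.37 (SE 0.06). EIF2AK2 had 3356, 2850 and 3152 against 2652, 2731 and 2752, a log2 fold change of -0.20 (SE 0.07). All 4 stayed within 1.5-fold, and the members' median was -0.20, beside -0.01 for all genes tested.

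Whether the response to dox differed between the lines was tested by the interaction contrast of the fit of all 12 libraries. Of the 9 members only OAS1 was called, beside 10.4% of the 16544 genes tested, 6.56% with a higher and 3.86% with a lower response in Pa-Tu-8902. The log2 difference was 5.11 (SE 0.81), with an edgeR adjusted p of 0.000139. OAS1 entered this fit only through its Pa-Tu-8902 counts. In MIA PaCa-2 it had 9 counts before and 2 counts after dox, so its response there was not measurable at this depth, and the size of the difference depends on the prior count and is no bound. With at least 10 counts in every library, which leaves OAS1 out, 0 members were called. For OAS2 the log2 difference was 2.89 with a 95% interval of 0.40 to 5.37 and an edgeR adjusted p of 0.106, and without untreated MIA PaCa-2 replicate 3, which holds all 3 of that group's counts, it was -0.31. The differences of the 4 members with ample counts in both lines were small. They were -0.025 (95% interval -0.25 to 0.20) for DDX58, 0.05 (-0.11 to 0.21) for MAVS, 0.05 (-0.18 to 0.28) for OAS3 and 0.08 (-0.09 to 0.25) for EIF2AK2. For DHX58 the interval was wider, from -0.48 to 0.77.
For IFIH1 the difference was 0.64 and for OASL 1.01, and neither was called. Without dox-treated MIA PaCa-2 replicate 3, the library with the most counts of both genes in its group, they were 2.20 and 1.66 and both were called.

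The TPM of EIF2AK2 rested in part on the transcript to which its reads were assigned. RSEM divides the reads of a gene among its isoforms, and this split is an estimate. Its isoforms were added after the counts and TPM of the gene were seen to move differently. EIF2AK2-201, a protein-coding transcript of 9975 bases, took 31.6% ± 3.24 of the gene's TPM in untreated and 46.5% ± 2.07 in dox-treated Pa-Tu-8902 (SD, n = 3). EIF2AK2-208, a transcript of 2235 bases annotated as a target of nonsense-mediated decay with the same coding length of 551 residues, was at 18.35, 17.85 and 20.43 TPM in untreated and at 9.33, 12.18 and 10.57 TPM in dox-treated Pa-Tu-8902. Its share was 44.6% ± 5.36 before and 33.5% ± 5.37 after dox, and the 2 groups did not overlap. In MIA PaCa-2 its share was 22.5% ± 1.83 and 22.1% ± 4.01, and it was at 5.2, 4.17 and 5.03 TPM and then at 4.65, 4.03 and 3.30 TPM. In TPM the short transcript was thus the more abundant in untreated Pa-Tu-8902 and the long one in MIA PaCa-2. The exact permutation test of a share with 3 against 3 libraries cannot go below 0.1 (two-sided), and it gave p = 0.1 for both isoforms in Pa-Tu-8902 and between the untreated lines. As shares of expected counts in place of TPM, the gain of EIF2AK2-201 after dox was 10.8 percentage points rather than 14.9. The share of EIF2AK2-208 in untreated Pa-Tu-8902 then exceeded that in untreated MIA PaCa-2 by 14.0 points rather than 22.1. The mean effective length of EIF2AK2 was 4151 bases in untreated and 5344 in dox-treated Pa-Tu-8902, and 6008 and 6338 bases in MIA PaCa-2. The level in Pa-Tu-8902 went from 42.5 ± 2.84 to 32.0 ± 1.12 TPM, while the normalized counts went from 4590 ± 167 to 4208 ± 131. When these lengths entered the fit as offsets, EIF2AK2 had a log2 fold change of -0.48 after dox in Pa-Tu-8902, within the fold limit.

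OAS1 is known for isoforms that differ in their carboxyl ends and in where they sit in the cell. In untreated Pa-Tu-8902 OAS1-203, which encodes 364 residues, took 28.2% ± 2.07 of OAS1 TPM, and it took 34.1% ± 2.62 after dox (SD, n = 3). OAS1-210 (384 residues) took 24.1% ± 3.54 and 23.0% ± 1.24, OAS1-201 (400 residues) 16.1% ± 12.2 and 11.2% ± 1.68, and OAS1-202 (414 residues) 13.8% ± 8.23 and 14.9% ± 1.86. The shares of OAS1-203 did not overlap between the groups, with the smallest exact permutation p this design allows, 0.1, and those of the other isoforms overlapped. Every one of these isoforms was higher in TPM after dox in each library, so the rise of OAS1 was spread over its transcripts. Shares are not given for MIA PaCa-2, where OAS1 was below 1 TPM in every library.

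ADAR, the deaminase that edits double-stranded RNA and keeps it from the sensors, was examined as the gene of this pathway known for an interferon-inducible isoform. As a whole it had a log2 fold change of 0.35 (SE 0.04) after dox in Pa-Tu-8902, within the fold limit. ADAR-202, a transcript with a longer coding sequence (1226 residues) than the constitutive ADAR-201, was at 1.03, 2.43 and 2.97 TPM in untreated and at 11.5, 9.10 and 16.15 TPM in dox-treated Pa-Tu-8902. Its share of ADAR TPM was 4.19% ± 2.09 before and 17.9% ± 4.78 after dox, without overlap and with an exact permutation p of 0.1, the smallest possible. ADAR-201 (931 residues) was at 19.3 ± 1.71 and 18.2 ± 2.98 TPM. ADAR-208, with 1200 coding residues, was at 5.58 ± 1.10 and 6.35 ± 0.45 TPM, and its share, 10.75% ± 1.88 before and 9.31% ± 0.40 after dox, overlapped (exact permutation p = 0.4). In MIA PaCa-2 ADAR-202 was at 2.47, 1.83 and 3.65 TPM and at 0, 1.88 and 1.98 TPM, which overlapped. Its share of ADAR TPM there was 2.89% ± 0.64 before and 1.28% ± 1.12 after dox, lower without overlap. This share was not tested, because it was under 10% in both groups. There ADAR-201 varied from 6.50 to 38.6 TPM between libraries, with overlapping groups.

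**Figure D4:**
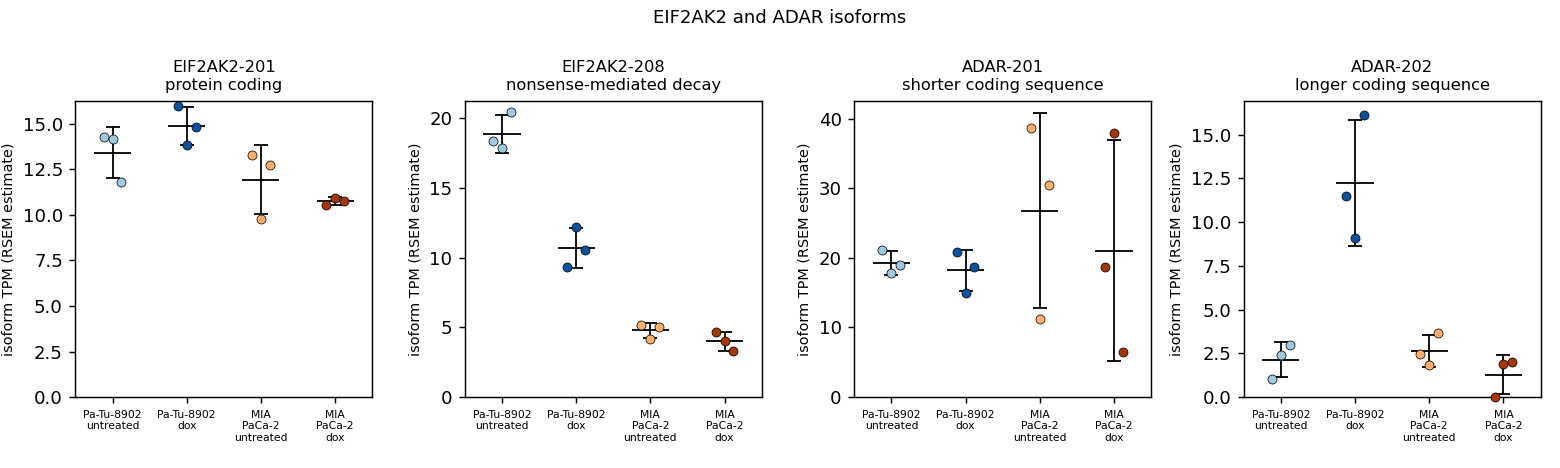
RSEM estimates of isoform TPM (y axes start at 0 and differ between panels) in the 4 groups for the protein-coding and the decay-annotated transcripts of EIF2AK2 and for ADAR-201 and the longer coding transcript ADAR-202 of ADAR, with 1 point per library, the mean as a line and the SD as a bar. EIF2AK2-208 goes from 18.9 to 10.7 TPM and ADAR-202 from 2.14 to 12.3 TPM after dox in Pa-Tu-8902, against 4.8 to 3.99 and 2.65 to 1.29 TPM in MIA PaCa-2.

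The genes around the sensors were read from lists written for this description, with earlier results of these data known. Of 10 genes around PKR and the 2'-5'-oligoadenylates, 2 fell and 1 rose after dox in Pa-Tu-8902, beside 7.12% and 9.22% of all genes tested. The fallen genes belong to eIF2α control. EIF2AK4, an eIF2α kinase like PKR, fell by 0.60 and PPP1R15A, a subunit of the eIF2α phosphatase, by 0.65 on the log2 scale. PPP1R15A had a log2 fold change of 0.56 in MIA PaCa-2, within the fold limit, and the difference between the lines was -1.20 and was called. PDE12, which degrades 2'-5'-oligoadenylates, fell by 0.64 in MIA PaCa-2 and had a log2 fold change of -0.58 in Pa-Tu-8902, just short of the fold limit. ABCE1, a ribosome recycling factor also known to act in the 2'-5'-oligoadenylate pathway, had log2 fold changes of -0.49 and -0.09 and was not called in either line.

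Of 19 genes of RIG-I-like receptor signalling, 2 rose and 0 fell after dox in Pa-Tu-8902, beside 16.3% of all genes called. The risen genes were DDX60, a helicase cofactor, at 0.60 and NLRX1, a mitochondrial regulator of MAVS, at 0.64 on the log2 scale. The median was -0.01, beside 0.00 for all genes. In MIA PaCa-2, 0 of 18 tested rose and 2 fell, beside 12% of all genes called. The fallen genes were RNF125, a ubiquitin ligase that acts on RIG-I, at -1.27 and TRAF6, a ligase of MAVS signalling, at -0.74. TRIM25, the ligase that activates RIG-I, had log2 fold changes of -0.15 and -0.18, TBK1 of 0.19 and 0.10 and IRF3 of 0.15 and -0.22, and none was called. IRF7, the inducible interferon regulatory factor, had a mean of 315.4 and 305.0 normalized counts in Pa-Tu-8902 and a count of 0 in every MIA PaCa-2 library. Against a floor of 3 counts per library it was at least 99.8-fold higher in untreated Pa-Tu-8902. Between the untreated lines 6 of the 19 were higher in Pa-Tu-8902 and 3 lower, beside 29.4% and 28.2% of all genes tested. The higher ones included DDX60 at 4.43, IKBKE at 2.82 and TRIM25 at 1.69 on the log2 scale, and RNF125 was lower, at -2.16.

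Of 13 other proteins that bind double-stranded RNA, 12 were tested and 2 rose in Pa-Tu-8902, beside 16.3% of all genes called. TLR3, the endosomal sensor, had 43.8 normalized counts in untreated and 112.1 in dox-treated libraries, a log2 fold change of 1.33 (SE 0.19), and DICER1, which cuts double-stranded RNA, changed by 0.73. In MIA PaCa-2 DICER1 alone was called and rose by 1.11, beside 12% of all genes called. TLR3 had a log2 fold change there of -0.37 (95% interval -1.10 to 0.37). The difference between the lines for TLR3 was 1.71, with an edgeR adjusted p of 0.00475. For TICAM1 it was -0.67, with an edgeR adjusted p of 0.00365. In that contrast 1 of 12 was thus called with a higher and 1 with a lower response in Pa-Tu-8902. Of all genes tested, 6.56% and 3.86% were so called. Between the untreated lines ADAR and ADARB1 were lower in Pa-Tu-8902, by log2 fold changes of -0.82 and -2.33.

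Interferon transcripts themselves were scarce. Of 10 ligand genes only IFNE, an epithelial type I interferon, passed the filter on counts. It had a mean of 79.9 normalized counts in untreated and 167.5 in dox-treated Pa-Tu-8902, a log2 fold change of 1.06 (SE 0.26), and was at 0 counts in all MIA PaCa-2 libraries. IFNB1 did not exceed 0.13 TPM and IFNL1 did not exceed 0.39 TPM in any library, in either condition.

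Among 15 interferon receptor and ISGF3 genes, 2 rose and 1 fell in Pa-Tu-8902, beside 16.3% of all genes called. IRF9 had a mean of 254.6 normalized counts in untreated and 969.6 in dox-treated libraries, a log2 fold change of 1.93 (SE 0.07), while its partner STAT2 had 0.42 and was not called. IRF1 changed by 0.66 and the kinase JAK2 by -0.66. In MIA PaCa-2 IRF9 had a log2 fold change of 0.18 (SE 0.20) and was not called. Its difference between the lines was 1.74 and was called. Of 14 genes tested in MIA PaCa-2, 1 rose (JAK1, by 0.63) and 1 fell (IFNGR1, by 0.62), beside 12% of all genes called. In the interaction contrast 3 of 15 were called with a higher and 1 with a lower response in Pa-Tu-8902. Of all genes tested, 6.56% and 3.86% were so called. Besides IRF9 these included IFNGR1 at 1.08 and JAK2 at -0.60. IFNLR1, the receptor of type III interferon, had 936 counts in untreated Pa-Tu-8902 and 6 in untreated MIA PaCa-2, a ratio of 159.8 with an exact 95% counting interval of 73.1 to 436.5.

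Of 30 reference interferon-stimulated genes that are no sensors, 29 were tested in Pa-Tu-8902. After dox 18 rose and 1 fell, beside 9.22% and 7.12% of all genes tested. Their median log2 fold change was 0.88. IFI44L rose by 4.50 from a mean of 1.36 to 35.3 normalized counts, MX2 by 2.47, SAMD9L by 2.27 and IFI27 by 2.26 on the log2 scale from low levels, and these 4 had 35.3 to 156.8 normalized counts after dox. The size for IFI44L rests on the few counts before dox. HERC5 was the one that fell, by 0.97. In MIA PaCa-2, 0 of the 19 tested rose and 5 fell, beside 4.36% and 7.64% of all genes tested. Those that fell included BST2 by 1.80, IFIT2 by 0.86, IFIT5 by 0.84 and IFIT1 by 0.73. In the interaction contrast 15 of 29 were called with a higher response in Pa-Tu-8902 and 0 with a lower one. Of all genes tested, 6.56% and 3.86% were so called. Some of the 29, IFI27 among them, were too low to test in MIA PaCa-2. Such genes passed the filter through Pa-Tu-8902, so their calls do not measure a response in MIA PaCa-2. Between the untreated lines 20 were higher in Pa-Tu-8902 and 2 lower, beside 29.4% and 28.2% of all genes tested. The median log2 fold change was 2.70. Genes too low to test in MIA PaCa-2 could only be called higher in this comparison. Of the marker lists, 2 of 3 fibroblast and endothelial genes tested also rose in Pa-Tu-8902, COL1A1 from 404.4 to 1481 and VWF from 16.0 to 65.4 normalized counts. Of 6 epithelial markers 1 rose there, beside 9.22% of all genes tested. In MIA PaCa-2 1 of 2 fibroblast and endothelial genes tested rose (COL1A2, by 0.70 on the log2 scale). There 1 of 4 epithelial markers tested fell (KRT19, by 1.66). Of all genes tested in that line, 4.36% rose and 7.64% fell. The part of other cells in these counts was not tested.

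The 6 genes of DNA sensing gave a comparison outside RNA sensing. In Pa-Tu-8902 IFI16 alone of 5 tested was called, beside 16.3% of all genes, and rose by 1.47 from 23.0 normalized counts. In MIA PaCa-2 0 of 4 were called by edgeR, beside 12% of all genes. Between the untreated lines, TMEM173, which encodes STING, was higher in Pa-Tu-8902 by a log2 fold change of 6.08 (SE 0.12) and CGAS by 1.81 (SE 0.07), and SAMHD1 was lower, at -0.76.

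**Figure D5:**
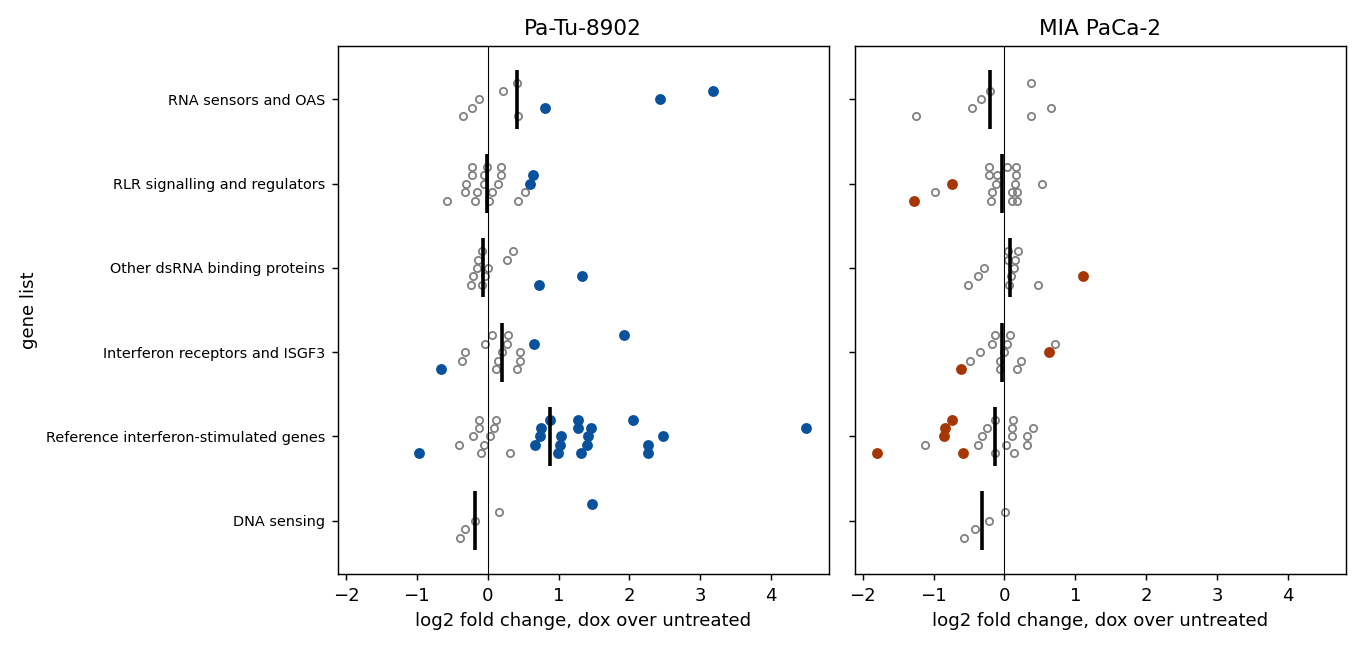
Log2 fold change of dox-treated over untreated libraries (x axis) for the tested genes of the lists shown, in Pa-Tu-8902 (left) and MIA PaCa-2 (right). Filled points were called, open points were not, and thick lines are medians. The interferon-stimulated genes have medians of 0.88 (Pa-Tu-8902) and -0.13 (MIA PaCa-2), and those of RIG-I-like receptor signalling are -0.01 and -0.03.

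Genes with a pattern most like each member were found by the distance between 3 log2 values, the fold changes after dox in each line and the difference between the untreated lines, over 10970 genes with a mean of at least 100 counts. OAS1 and OAS2 were left out because they had no fold change in MIA PaCa-2, and IFIH1 is not described here. The nearest genes were JMJD7 and ARAP3 for DDX58, MGAT4A and VSIR for DHX58, RAB18 and GRK6 for MAVS, SEC22C and OGDH for EIF2AK2, AHR and FBXO32 for OAS3, and JHY and MARC1 for OASL. Of these 6 members, the nearest gene was closest for EIF2AK2, at a distance of 0.0457, and farthest for OASL, at 0.371. None of these nearest genes was itself a member.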

How the data were processed

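Poly(A) RNA of 12 libraries was made into strand-specific NEBNext libraries and sequenced. The authors trimmed reads with Trimmomatic 0.39 and mapped and quantified them with STAR 2.5.2a and RSEM 1.3.1 on GRCh38 (hg38), with the GENCODE 29 genes named in the files. The deposited tables hold RSEM expected counts, TPM, FPKM and effective lengths in bases for 58721 genes, and the same for isoforms. RSEM shares reads between overlapping or similar transcripts, and its strand setting is not given in the sources used here.

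Expected counts, of which 5.34 percent were not whole, were rounded and fitted with edgeR 4.0.16 in R 4.3.3 (TMM, quasi-likelihood test). Each line was fitted on its own 6 libraries for the effect of dox, and all 12 together for the untreated lines and for the interaction. Genes reaching 10 counts in 3 or more libraries of a fit were kept. A call needed a Benjamini-Hochberg adjusted p below 0.01 together with a 1.5-fold change, the limits of the study's methods. DESeq2 1.42.0, other filters, other scalings, effective lengths as offsets, FPKM and each library left out were tried as alternatives. Isoform shares were compared by two-sided exact permutation tests. The 95% intervals of log2 fold changes use the normal distribution, with an SE derived from the F statistic of the test. With this few libraries they are narrower than intervals that match the test. Count ratios have exact 95% intervals, which cover counting error only. Libraries of a group differed by more than sampling noise, and none was counted as a duplicate. The test scripts were tested on simulated data, with figures drawn in Python 3.11.15.

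All 9 members, GOT1 and a set of pathway genes were named whatever their values, except for a few results that are not reported here, together with the called genes of largest change from the other lists. The members and lists were chosen with earlier results of these data known.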

Additional observations from a re-analysis of the deposited data

Results flagged for a closer look

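The interaction contrast of edgeR's quasi-likelihood test gave OAS1 a log2 difference between the dox responses of the lines of 5.11, with a Benjamini-Hochberg adjusted p of 0.000139. OAS1 rose in 3 of 3 dox-treated Pa-Tu-8902 libraries against every untreated one and entered the fit only through that line. In MIA PaCa-2 it had 9 counts in all before and 2 counts after dox, so its response there was not measurable at this depth. With at least 10 counts in every library, which leaves OAS1 out, 0 members were called. Over the fits that leave out 1 library, the log2 difference was 4.66 to 7.85.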

How the results depend on the processing

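With an adjusted p below 0.05 and no fold limit, genes called were 7619 (dox, Pa-Tu-8902), 6116 (dox, MIA PaCa-2) and 4432 (difference between the lines), and members called were 7, 5 and 2. With an adjusted p below 0.01 and no fold limit, chosen after seeing the data, members called were 7 (Pa-Tu-8902) and 1 (MIA PaCa-2). In 1 fit of all 12 libraries, 1 member was called after dox in MIA PaCa-2 (OASL, lower). With at least 10 counts in every library, which drops genes near 0 in MIA PaCa-2, 6244 genes and 3 members were called between the untreated lines and 0 members for the difference in response. Under that filter the log2 difference in response of DDX58 was 5e-04, and with effective lengths as offsets it was 0.0165 and that of EIF2AK2 was -0.17.

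Leaving out each library in turn, the log2 difference in response ranged from -0.053 to 0.0489 for DDX58, from -0.0644 to 0.3208 for DHX58, from -0.3149 to 3.4519 for OAS2 and from -0.0067 to 0.1141 for OAS3. Members called were 2 to 3 after dox in Pa-Tu-8902 and 1 to 3 for the difference in response. Of the members' log2 fold changes under all alternatives, 525 kept direction and call, 16 gained a call, 1 lost it and 11 turned direction. The replicate numbers were not treated as pairs. Deviations of same-numbered libraries correlated at 0.359, -0.255 and 0.288 (Pa-Tu-8902) and at 0.0141, -0.219 and -0.278 (MIA PaCa-2). Untreated Pa-Tu-8902 replicate 1 correlated best with the dox-treated library of its own number. Untreated Pa-Tu-8902 replicate 3 correlated about equally with dox-treated replicates 3 and 2, at 0.288 and 0.286. Untreated Pa-Tu-8902 replicate 2 correlated best with dox-treated replicate 1, at 0.383. With 3 libraries per group these correlations cannot exclude that samples were handled in pairs. With the replicate block, members called were 3, 0, 7 and 1 in the 4 comparisons, and genes called were 2380, 1735, 9472 and 1611. Depth limits what can be said of OAS1 and OAS2 in MIA PaCa-2.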
